A study of Mus musculus with 3 samples.

Results

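Expression of 10 genes around the transcription factor NF-κB was followed in single-cell RNA sequencing of sorted mouse NK cells. They are 4 subunit genes (Nfkb1, Nfkb2, Rel and Relb), 4 genes whose products hold the pathway in check (Nfkbia, Nfkbid, Nfkbiz and Tnfaip3) and the target genes Gadd45b and Icam1. They were chosen by name, and 10 of 10 were found among the 25906 genes listed in the data. Expression was counted by UMI (unique molecular identifier, which counts 1 captured RNA molecule). NF-κB is a family of dimeric transcription factors that rest in the cytoplasm bound to inhibitor proteins and enter the nucleus once receptors for cytokines, for target cell ligands or for microbial products signal. Many of their first targets are their own inhibitors, so a response switches on its brakes. In NK cells the pathway lies downstream of activating receptors and of IL-18, and it takes part in making cytokines and chemokines and in survival.

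The study asks how NK cells in the lung vessels control metastasis, and its single-cell experiment compares NK cells of lung and blood before and after tumor cells arrive. All mice were wild-type C57BL/6 females aged 9 weeks. Naive mice received no tumor cells, and the others received 100000 PyMT mammary tumor cells intravenously, either 6 h or 14 days before they were killed. Live cells with NK1.1 and NKp46 on their surface were sorted from both tissues, marked with a hashtag antibody per tissue and loaded as 1 droplet library per time point. Each library pools mice, and the cells are not assigned to single mice.

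That gave 6 groups from 3 libraries: 3676 lung and 4367 blood cells of naive mice, 4680 lung and 2746 blood cells at 6 h, and 3575 lung and 2069 blood cells at 14 days. The methods list lung before blood and the tag B0304 before B0306, and the tags were assigned to tissues in that order. Total counts per group ranged from 16936897 to 35922737 UMIs, and the median per cell from 5909.5 to 7524. The 10 NK cell markers summed to between 18379 and 26654 CPM (UMIs per 1000000 UMIs of the group), with none at 0, so the sorted cells carried the label's genes. The 7 endothelial markers summed to between 49.8 CPM and, in lung at 14 days, 86.6 CPM, most of it Pecam1 (49.4 to 82.5 CPM), which leukocytes also express, while Cdh5 and Cldn5 were at 0 in 5 of the groups. The hemoglobin gene Hbb-bs was at 50.7 CPM in lung at 14 days, while the 5 erythroid markers summed to at most 2.57 CPM in the other groups. Lyz2, a myeloid gene, was at 3.37 CPM in lung and 0.60 CPM in blood of naive mice, at 26.1 and 44.9 CPM at 6 h, and at 13.5 and 89.3 CPM at 14 days. Markers of ILC1, relatives of NK cells, summed to 47.3 CPM in naive and 118 CPM in 14-day lung and to 35.0 and 78.6 CPM in blood. The part of these cells in the comparisons over time was not tested beyond leaving out cells with a marker of another cell type. That step used neither ILC1 nor erythroid markers, and it kept 44.4% to 58.1% of the cells of a group. Ribosomal protein genes took 22.7% of counts in lung and 18.7% in blood at 14 days and 13.0% to 15.1% in the other groups. Between 6 and 16 cell barcodes occurred in 2 of the libraries.

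With 1 library per condition there is no replicate, so no test was made and no difference between time points has a check against mouse-to-mouse spread. Levels are summed UMIs as CPM, and ratios are ratios of CPM, both with exact 95% intervals (Poisson for a level, binomial conditional on the summed counts for a ratio) that cover counting error only. A gene is called higher or lower past 1.5-fold, which is 0.58 on the log2 scale, and the share of all genes past that fold (counting genes that reached 20 CPM in either group) is given beside each count of members. Lung was digested with enzymes at body temperature while blood was not, so tissue and preparation cannot be told apart in any comparison of lung with blood.

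Sequences before transcript starts of the genes are shown first, because 5 of the 7 members with a sequence at hand held letters there that most genes lack. Some members were chosen as NF-κB targets, so this count is not a test. RefSeq promoter windows of 300 bases (250 before and 50 after a transcript start, GRCm38.p6) were at hand for 7 of the 10 genes. A match to the 10-base κB consensus on either strand was present in 5 of them, Nfkb2, Rel, Nfkbia, Nfkbid and Tnfaip3. Over all genes with such windows, 9.55% of 27025 had a match. No match to these letters was found in the windows of Gadd45b and Icam1, which says nothing of other forms of the site. In the stretches below, written 5′ to 3′ in the direction of transcription, capitals mark the bases inside a match, and matches on the opposite strand are shown on the strand of the gene.
Nfkbia, chr12:55492648-55492897, minus strand: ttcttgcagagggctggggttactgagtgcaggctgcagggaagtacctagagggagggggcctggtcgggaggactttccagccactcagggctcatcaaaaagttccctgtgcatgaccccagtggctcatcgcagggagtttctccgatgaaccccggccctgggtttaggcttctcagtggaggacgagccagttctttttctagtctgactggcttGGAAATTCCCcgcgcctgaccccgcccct
Rel, chr11:23770970-23771219, minus strand: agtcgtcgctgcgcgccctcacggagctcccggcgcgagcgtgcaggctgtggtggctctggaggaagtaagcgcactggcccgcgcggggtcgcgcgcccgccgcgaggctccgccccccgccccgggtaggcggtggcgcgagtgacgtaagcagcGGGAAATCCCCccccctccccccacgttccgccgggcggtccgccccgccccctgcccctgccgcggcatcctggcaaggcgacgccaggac
Nfkbid, chr7:30422156-30422405, plus strand: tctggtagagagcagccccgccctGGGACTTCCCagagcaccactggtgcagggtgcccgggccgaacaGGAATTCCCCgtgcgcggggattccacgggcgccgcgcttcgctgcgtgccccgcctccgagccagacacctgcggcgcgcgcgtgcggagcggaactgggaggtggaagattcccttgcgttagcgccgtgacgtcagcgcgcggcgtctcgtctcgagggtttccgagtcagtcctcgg
Tnfaip3, chr10:19015516-19015545, minus strand: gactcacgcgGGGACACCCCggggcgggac
Tnfaip3, chr10:19015411-19015440, minus strand: gtgactggaatttccatcGGAAATCCCCct
Nfkb2, chr19:46304688-46304717, plus strand: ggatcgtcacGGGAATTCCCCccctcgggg
The matches began 29 bases before the start in Nfkbia, 92 and 91 in Rel, 226 and 181 in Nfkbid and 125 and 12 in Tnfaip3. For Tnfaip3 and Nfkb2 only 30 bases around a match are shown. Annotated exons cover 110 and all 250 of the 250 bases before the start in their windows shown. These windows and that of Nfkbid lie wholly or almost wholly inside the annotated genes, so they are not upstream of the whole gene. The Nfkb2 window also had a match 11 bases before the start, and windows of other Nfkb2 starts had matches too. The windows of the other transcript starts of Nfkbid and Tnfaip3 had no match.

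On GRCm38 the subunit genes lie with Nfkb1 at chr3:135584655-135691547 (minus strand), Nfkb2 at chr19:46304320-46312385 (plus strand), Rel at chr11:23736847-23770970 (minus strand) and Relb at chr7:19606217-19629438 (minus strand). The inhibitors lie with Nfkbia at chr12:55489410-55492647 (minus strand), Nfkbid at chr7:30421732-30428746 (plus strand), Nfkbiz at chr16:55811375-55838899 (minus strand) and Tnfaip3 at chr10:19000910-19015657 (minus strand), and the targets with Gadd45b at chr10:80930073-80932204 (plus strand) and Icam1 at chr9:21015985-21028817 (plus strand). Counts cover whole genes and were not split by exon, intron or UTR here.

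**Figure D1:**
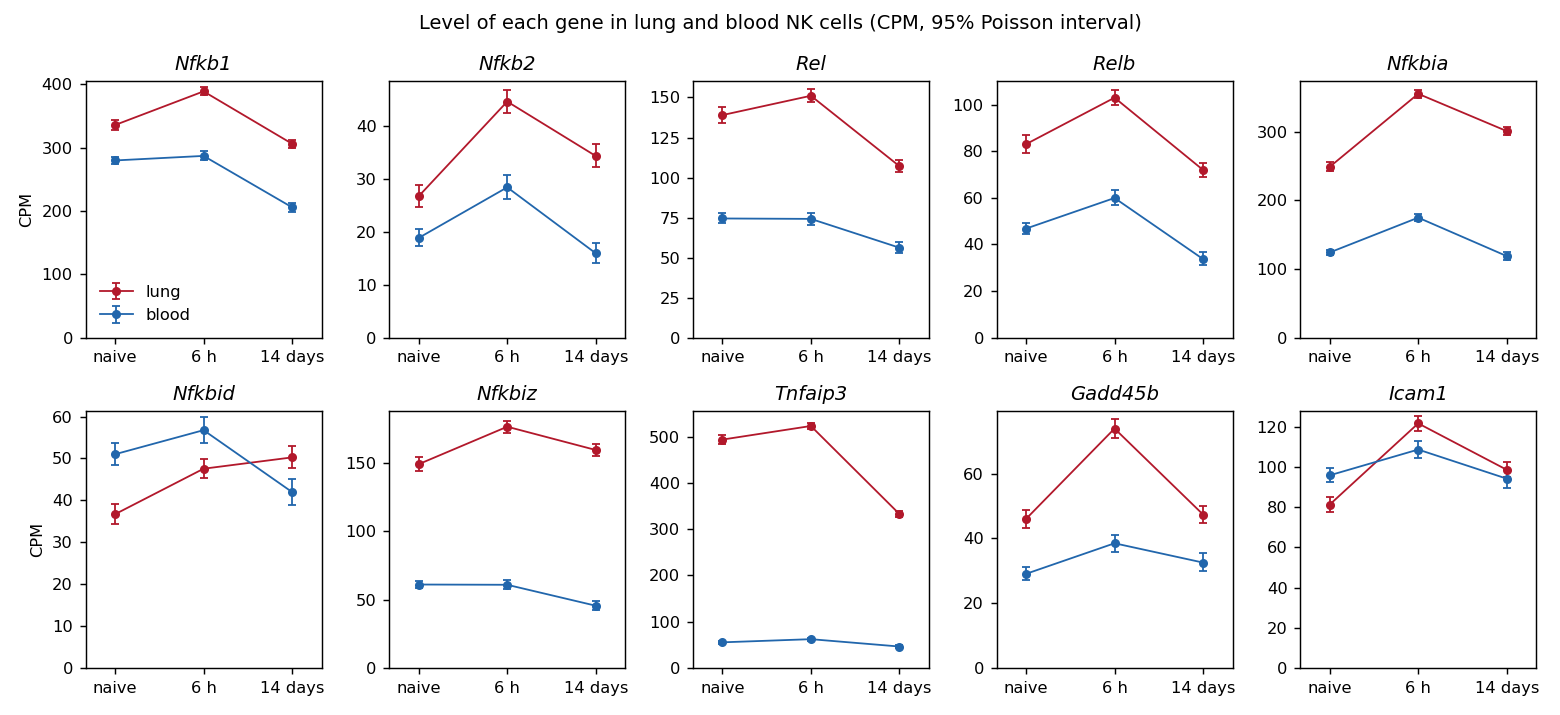
Level of each gene (CPM, linear axis from 0, its own scale for each gene) in lung (red) and blood (blue) NK cells of the naive, 6 h and 14-day libraries, with 95% Poisson intervals. Lines join the 3 libraries of a tissue and do not stand for a time course in the same animals. Tnfaip3 lay between 333 and 524 CPM in lung and between 46.3 and 62.2 CPM in blood, while Nfkbid and Icam1 crossed between tissues.

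In the comparison of lung with blood within a library, 6 members were past 1.5-fold higher in lung in naive mice, 7 at 6 h and 6 at 14 days, and none was lower. Of all genes, 6.46%, 6.12% and 5.58% were past that fold higher in lung and 3.06%, 2.49% and 3.42% lower. The median log2 ratio of the 10 members was 0.75, 0.86 and 1.01, beside -0.09, -0.09 and -0.10 over all genes. Members just past the fold were Nfkb2 at 6 h (1.57-fold) and Gadd45b in naive mice (1.58-fold), and just short of it were Nfkb1 (1.49-fold) and Gadd45b (1.46-fold) at 14 days.

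Tnfaip3 encodes A20, a ubiquitin-editing enzyme that takes apart the signalling complexes upstream of NF-κB, and had the largest difference of the 10 in each library. It had 494 CPM in lung and 55.4 CPM in blood of naive mice, 524 and 62.2 CPM at 6 h, and 333 and 46.3 CPM at 14 days. Lung exceeded blood 8.92-fold (95% interval 8.48 to 9.40), 8.42-fold (7.97 to 8.90) and 7.19-fold (6.69 to 7.75). The 3 lung groups lay above all 3 blood groups, and only 17 of 6640, 20 of 6589 and 24 of 6467 genes had a larger ratio. After each cell was thinned to 3000 UMIs, at least 1 Tnfaip3 UMI was found in 69.9% of lung and 13.5% of blood cells in naive mice, in 70.6% and 16.1% at 6 h, and in 50.2% and 12.2% at 14 days. Unthinned, the shares were 85.6% and 24.5%, 88.2% and 31.1%, and 69.8% and 24.0%. No other cell type was at hand to set these shares against, but free RNA, limited from markers of other cell types in near-empty droplets, could give a Tnfaip3 UMI to at most 5.88%, 4.25% and 2.26% of thinned cells. It could make up as much as 36.5%, 23.3% and 16.5% of the blood level of Tnfaip3, and at most 4.09% of any lung level.

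Nfkbia and Nfkbiz, inhibitors of the IκB family, were also higher in lung in all 3 libraries. Nfkbia encodes IκBα, which holds NF-κB dimers in the cytoplasm and is resynthesised after each response. Its levels were 249 CPM in lung and 124 CPM in blood of naive mice, 356 and 175 CPM at 6 h, and 301 and 119 CPM at 14 days. The ratios were 2.00-fold (1.92 to 2.09), 2.03-fold (1.96 to 2.11) and 2.53-fold (2.41 to 2.66), and the highest blood group lay below the lowest lung group. Nfkbiz encodes IκBζ, a nuclear member of the inhibitor family that also helps to switch on a second wave of targets. It had 149 and 61.1 CPM in naive lung and blood, 177 and 60.9 CPM at 6 h, and 160 and 45.6 CPM at 14 days, a difference of 2.44-fold (2.31 to 2.59), 2.90-fold (2.74 to 3.08) and 3.50-fold (3.25 to 3.79). The difference on the log2 scale was 0.52 (0.38 to 0.66) larger at 14 days than in naive mice, by counting error alone.

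Nfkbid, which encodes the nuclear inhibitor IκBNS, did not share that order. It had 36.7 CPM in lung and 51.0 CPM in blood of naive mice, 47.5 and 56.8 CPM at 6 h, and 50.3 and 42.0 CPM at 14 days. Lung was thus 0.72-fold (0.66 to 0.78) of blood in naive mice, 0.84-fold (0.78 to 0.90) at 6 h and 1.197-fold (1.09 to 1.31) at 14 days. In the order of the 6 groups, naive blood and its neighbour 14-day lung did not differ beyond counting error. Neither did 14-day lung and its neighbour 6 h lung. Naive blood was not compared with 6 h lung.

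Over all cells, the subunit genes among the members were all higher in lung, by different amounts. Rela, another subunit gene, is not a member and was counted with the upstream and core genes. Rel encodes c-Rel, a subunit with a transactivation domain that is prominent in lymphocytes. It had 139 and 74.5 CPM in naive lung and blood, 151 and 74.2 CPM at 6 h, and 107 and 56.2 CPM at 14 days, which is 1.87-fold (1.77 to 1.97), 2.04-fold (1.93 to 2.15) and 1.91-fold (1.77 to 2.05). Relb, the subunit of the alternative pathway that pairs with p52, was 1.77-fold (1.66 to 1.90), 1.72-fold (1.61 to 1.83) and 2.13-fold (1.94 to 2.35) higher in lung, at 83.0, 103 and 71.9 CPM against 46.8, 59.9 and 33.7 CPM. Nfkb2, which encodes p52 and its precursor p100, had 26.7, 44.6 and 34.3 CPM in lung and 18.8, 28.4 and 15.9 CPM in blood. Its ratio was 1.42-fold (1.26 to 1.59) in naive mice, 1.57-fold (1.43 to 1.72) at 6 h and 2.15-fold (1.88 to 2.47) at 14 days. The smallest difference among the subunits was that of Nfkb1, the gene of p50 and its precursor p105, at 1.2-fold (1.16 to 1.24), 1.35-fold (1.32 to 1.40) and 1.49-fold (1.43 to 1.55). Nfkb1 had 336, 389 and 306.2 CPM in lung and 280, 287 and 206 CPM in blood.

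The targets differed from each other. Gadd45b, a stress and growth-arrest gene that NF-κB induces, had 46.0, 73.9 and 47.4 CPM in lung and 29.1, 38.5 and 32.5 CPM in blood, which is 1.58-fold (1.45 to 1.73), 1.92-fold (1.78 to 2.08) and 1.46-fold (1.32 to 1.61). Icam1, the gene of the adhesion molecule that the integrin LFA-1 binds, had 81.3, 122 and 98.6 CPM in lung and 95.8, 109 and 94.2 CPM in blood. Lung was 0.85-fold (0.80 to 0.90) of blood in naive mice, 1.12-fold (1.07 to 1.18) at 6 h and 1.05-fold (0.98 to 1.11) at 14 days, all short of 1.5-fold and on both sides of equality.

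**Figure D2:**
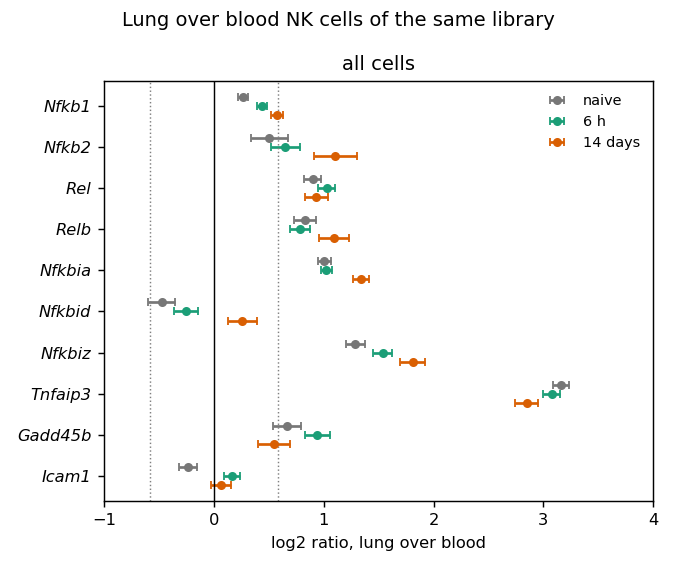
Log2 ratio of CPM, lung over blood, for each gene in the naive (grey), 6 h (green) and 14-day (orange) libraries, with exact 95% intervals, the solid line at no difference and the dotted lines at 1.5-fold. Tnfaip3 stands apart at 2.85 to 3.16, and Nfkbid and Icam1 lie on both sides of 0.

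Early response genes, which tissue digestion is known to raise, moved with the same comparison. Of the 23 on the list, 12 of 19 at or above 20 CPM were past 1.5-fold higher in lung in naive mice and 2 lower, 13 of 20 higher and 2 lower at 6 h, and 14 of 19 higher and 1 lower at 14 days, with medians of 1.46, 1.62 and 1.15 on the log2 scale. Of all genes, 6.46%, 6.12% and 5.58% were higher past that fold and 3.06%, 2.49% and 3.42% lower. Dusp1, a phosphatase gene of the early response, was 22.03-fold, 21.4-fold and 17.9-fold higher in lung, while Egr1 was lower in lung in naive mice (23.8 against 48.1 CPM). Heat shock genes were not past the fold in naive mice or at 6 h (0 of 8), but Hspa1a and Hspa1b were higher in lung at 14 days, at 22.1 and 41.9 CPM against 0.65 and 1.00 CPM in blood.

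The members were also compared in the 478, 522 and 459 lung cells and the 2847, 1742 and 1383 blood cells without a UMI of Fos, Fosb, Jun, Egr1, Atf3, Dusp1, Nr4a1, Hspa1a or Hspa1b, a selection made after the data were seen. These are 13.0%, 11.2% and 12.8% of lung cells and 65.2%, 63.4% and 66.8% of blood cells, and they are shallower in lung, at medians of 5166.5, 5920.5 and 5876 UMIs against 6111, 7142.5 and 7216 in blood. In them Tnfaip3 was at 435, 393 and 177 CPM in lung and 39.4, 51.3 and 37.3 CPM in blood, a log2 ratio of 3.46 (3.33 to 3.60), 2.94 (2.80 to 3.07) and 2.25 (2.06 to 2.44). Nfkbiz was at 0.76, 1.08 and 1.26, Rel 0.74, 0.73 and 0.83, and Nfkbia 0.50, 0.51 and 0.64. The ratio of Gadd45b was 0.03 (-0.49 to 0.51), -0.14 (-0.54 to 0.24) and 0.00 (-0.45 to 0.43) in these cells. Nfkb1 was at 0.08 (-0.05 to 0.20), 0.10 (-0.01 to 0.21) and 0.46 (0.33 to 0.58), and Nfkb2 at -0.10 (-0.63 to 0.40), 0.58 (0.26 to 0.89) and 0.89 (0.48 to 1.29). Icam1 was lower in lung in each library here, at -0.44 (-0.70 to -0.18), -0.30 (-0.51 to -0.10) and -0.24 (-0.47 to -0.01). Nfkbid was at -0.69 (-1.14 to -0.27), -0.54 (-0.89 to -0.20) and -0.26 (-0.64 to 0.10), so the crossing of these 2 genes between tissues was not seen in these cells. Relb was at 0.66, 0.52 and 0.90. In all, 4, 3 and 6 members were past 1.5-fold higher, beside 5.9%, 4.83% and 3.29% of all genes. Counting both directions in naive mice, 5 members were past the fold, with Nfkbid lower, beside 9.43% of all genes. The selection also left out cells of blood, which was not digested, so it does not single out digestion. The effect of digestion on the members was not tested.

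The tissue difference of Tnfaip3 was present in every class of cells set by Cd27 and Itgam UMIs. NK cells mature from a stage with surface CD27 to one with CD11b, the product of Itgam, and cells were classed by a thinned UMI of Cd27 or Itgam. The class with an Itgam UMI only held 50.2%, 45.1% and 34.8% of thinned lung cells and 53.2%, 46.6% and 46.3% of blood cells, and the class with Cd27 only held 6.43% to 9.32% of a group. Cells with neither UMI made up 32.8% of a group (naive blood) to 52.0% (14-day lung), and these were not placed at a stage. Tnfaip3 in naive lung was at 466 CPM in cells with Cd27 only and 492 CPM in cells with Itgam only, and in naive blood at 59.4 and 53.3 CPM. Over the 4 classes and 3 libraries, the log2 ratio of lung over blood for Tnfaip3 lay between 2.52 and 3.21.

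Within lung, cells with Cd27 only differed from cells with Itgam only in few members. No member was past 1.5-fold higher and 1 was lower in naive mice, 0 and 2 at 6 h, and 3 and 1 at 14 days, beside 3.46% and 2.84%, 2.73% and 2.81%, and 4.06% and 7.23% of all genes. The 3 at 14 days were the subunits Nfkb1 at 0.67 (0.57 to 0.77), Nfkb2 at 1.13 (0.83 to 1.43) and Rel at 0.69 (0.53 to 0.86) on the log2 scale. In naive mice the same ratios were 0.28, 0.20 and 0.21. Icam1 was lower in cells with Cd27 only at all times, at -0.60, -0.61 and -0.66. In blood, Gadd45b was higher in naive mice (0.85, 0.51 to 1.18) and Nfkbiz lower at 14 days (-0.73, -1.23 to -0.26), and no member was past the fold at 6 h. Beside these stood 2.28%, 2.27% and 4.29% of all genes higher and 2.05%, 3.23% and 5.16% lower in blood.

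A UMI of Pmepa1, a gene induced by TGF-β, was found in 5.01%, 7.63% and 28.4% of thinned lung cells in naive mice, at 6 h and at 14 days. No member was past 1.5-fold between cells with and without it in any of the 3 lung groups, beside 2.98%, 1.29% and 5.66% of all genes in either direction. The nearest was Nfkb2 at 14 days, at 0.57 (0.38 to 0.76) on the log2 scale.

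Within every group the members were most abundant in the few cells that made most Ccl4. Ccl4 encodes a chemokine that activated NK cells release and that NF-κB can induce, and cells with at least 50 Ccl4 UMIs per 10000 made up 6.80%, 7.93% and 5.40% of lung cells and 6.09%, 6.77% and 4.93% of blood cells in naive mice, at 6 h and at 14 days. The limit is a point on a range, and 27 to 231 cells of a group lay between 40 and 60. In blood, 10 of 10 members were past 1.5-fold higher in Ccl4-high cells in each library, beside 6.13%, 6.12% and 7.15% of all genes, and their median log2 ratio was 2.41, 2.40 and 2.55. In lung 9, 9 and 7 members were, beside 2.35%, 2.23% and 2.91% of all genes, with medians of 1.29, 1.17 and 1.2. Over all genes the medians lay between -0.08 and -0.04. Ccl4 is on the list of other NF-κB targets, so a split on it is not independent of the pathway, and these counts are not a test.

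Gadd45b led this comparison. It was at 294, 328 and 367 CPM in Ccl4-high blood cells and at 11.8, 18.5 and 16.3 CPM in the other blood cells of the naive, 6 h and 14-day libraries, and at 237, 338 and 230 CPM against 33.3, 54.2 and 37.7 CPM in lung. On the log2 scale that is 4.63, 4.15 and 4.49 in blood and 2.83, 2.64 and 2.61 in lung. Nfkbid was next in blood, at 347, 400 and 350 CPM against 31.8, 33.0 and 27.1 CPM, with log2 ratios of 3.45, 3.60 and 3.69, and was at 133, 206 and 158 CPM against 30.3, 35.7 and 44.5 CPM in lung.

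Tnfaip3 was the member with the least contrast in lung. It had 699, 721 and 450 CPM in Ccl4-high and 480, 509 and 327 CPM in other lung cells, a log2 ratio of 0.54, 0.50 and 0.46, all short of 1.5-fold. In blood it had 241, 254 and 218 CPM in Ccl4-high and 43.3, 48.9 and 37.9 CPM in other cells, a ratio of 2.48, 2.38 and 2.52. The other lung cells thus held more Tnfaip3 than Ccl4-high blood cells did in all 3 libraries. At 14 days Nfkb1 (0.49) and Nfkb2 (0.46) also stayed short of the fold in lung.

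**Figure D3:**
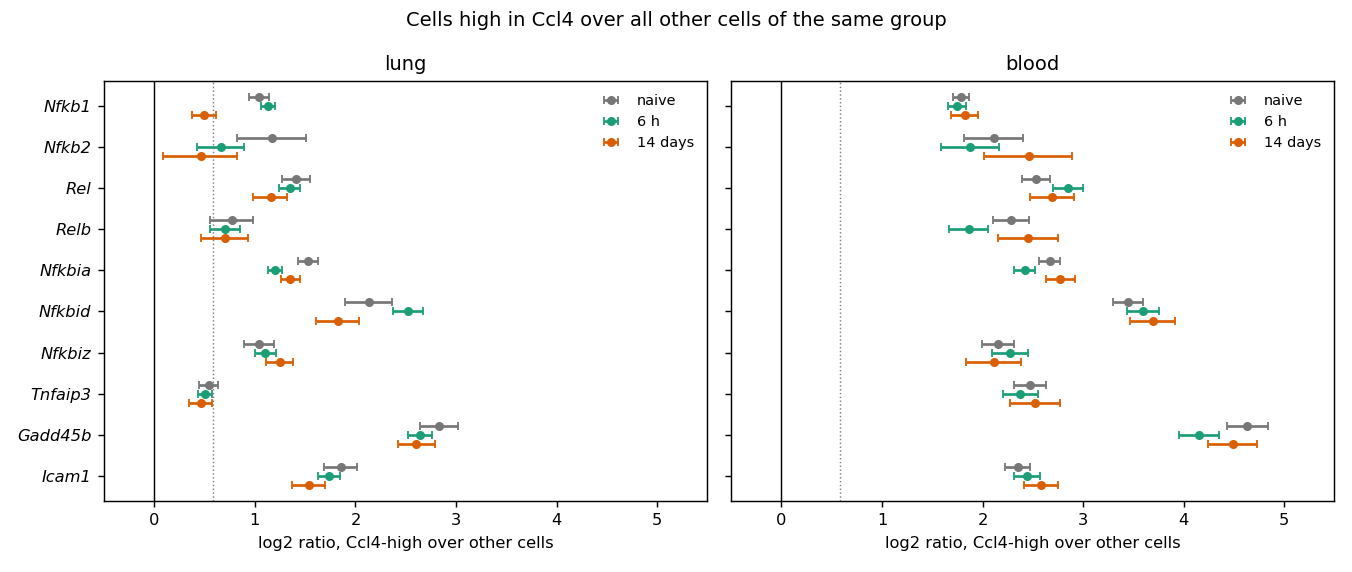
Log2 ratio of CPM, Ccl4-high cells over the other cells of the same group, in lung (left) and blood (right), for the naive (grey), 6 h (green) and 14-day (orange) libraries, with exact 95% intervals and dotted lines at 1.5-fold. Values in blood run from 1.75 to 4.63 and in lung from 0.46 to 2.83, with Tnfaip3 among the lowest in lung.

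Splitting the cells in this way changed the comparison of tissues. Among Ccl4-high cells, Tnfaip3 was higher in lung at 1.54 (1.37 to 1.70), 1.51 (1.34 to 1.67) and 1.04 (0.80 to 1.30) on the log2 scale, and Nfkbiz at 0.36, 0.58 and 1.05. Nfkbid was lower in lung, at -1.39 (-1.62 to -1.15), -0.96 (-1.13 to -0.78) and -1.15 (-1.41 to -0.89), and Icam1 at -0.63, -0.39 and -0.82. Nfkbia differed by 0.15 or less in each library. Of the subunits, Nfkb2 and Relb were lower in lung than in blood among Ccl4-high cells in each library, and Rel at 14 days, with intervals not given here. Among the other cells, Gadd45b was higher in lung at 1.49 (1.30 to 1.68), 1.55 (1.39 to 1.72) and 1.21 (1.01 to 1.41), more than over all cells, and Rel at 1.13, 1.37 and 1.17. Nfkbid was at -0.07 (-0.22 to 0.08), 0.11 (-0.02 to 0.25) and 0.72 (0.56 to 0.88) there, so its lower level in naive lung lay in the Ccl4-high cells.

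**Figure D4:**
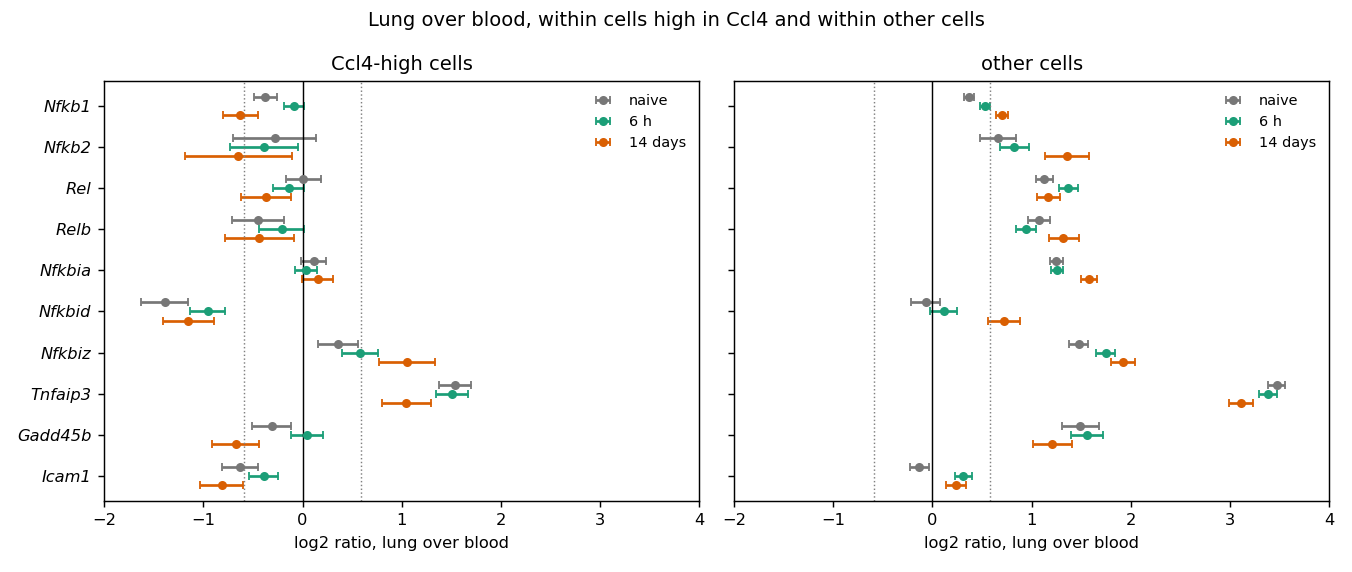
Log2 ratio of CPM, lung over blood, within Ccl4-high cells (left) and within the other cells (right) of the naive (grey), 6 h (green) and 14-day (orange) libraries, with exact 95% intervals and dotted lines at 1.5-fold. In Ccl4-high cells only Tnfaip3 and Nfkbiz lie wholly above 0 in all 3 libraries, and Nfkbid and Icam1 lie wholly below it.

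At 6 h after tumor cells, all 10 members were higher in lung than in naive lung beyond counting error, but by little. The share of all genes that were so was not counted. Of 6404 genes, between 10 (for Nfkb2) and 1312 (for Tnfaip3) had a larger ratio than a member, and 998 a larger one than Rel. Nfkb2 at 1.67-fold (1.52 to 1.83) and Gadd45b at 1.61-fold (1.496 to 1.73) were past 1.5-fold, beside 0.359% of all genes, and Icam1 was just short, at 0.58 (0.50 to 0.66) on the log2 scale. Nfkbia followed at 1.43-fold (1.38 to 1.47) and Nfkbid at 1.30-fold (1.19 to 1.41). Relb was at 1.24-fold, Nfkbiz at 1.18-fold, Nfkb1 at 1.16-fold, Rel at 1.09-fold and Tnfaip3 at 1.06-fold (1.04 to 1.08). In the cells without the 9 early response and heat shock genes, Rel and Tnfaip3 were below naive lung, at -0.09 and -0.15 on the log2 scale. The median of the members was 0.34 on the log2 scale, against -0.08 over all genes.

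In blood at 6 h only Nfkb2, at 1.51-fold (1.34 to 1.69), was past the fold, beside 0.214% of all genes higher. Nfkbia was 1.41-fold (1.35 to 1.47), Gadd45b 1.33-fold (1.204 to 1.46) and Relb 1.28-fold (1.19 to 1.38) of naive blood. The ratios of Nfkb1, Rel and Nfkbiz, at 1.03, 1.00 and 1.00, did not differ from equality beyond counting error. The median of the members was 0.17, against -0.06 over all genes.

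At 14 days no member was past 1.5-fold of naive in either tissue, while 15.6% of all genes were in lung and 3.47% in blood. Of the genes past the fold, 27.9% were higher in lung and 20.7% in blood. These shares were 59.8% and 59.9% with TMM factors, which moved all log2 ratios up by 0.19 in lung and 0.10 in blood. In lung Tnfaip3 was at 0.67-fold (0.66 to 0.69) and Rel at 0.77-fold (0.73 to 0.81) of naive lung, whereas Nfkbid was at 1.37-fold (1.26 to 1.49), Nfkb2 at 1.28-fold (1.16 to 1.42), and Nfkbia and Icam1 at 1.21-fold each. With TMM factors Tnfaip3 was at -0.38 on the log2 scale and Nfkbid, at 0.64, was past the fold. In the cells without the 9 early response and heat shock genes, Tnfaip3 at -1.30 and Nfkb2 at 0.84 were past it. In blood 7 of the members were below naive blood beyond counting error, with Relb lowest at 0.72-fold (0.65 to 0.79) and Nfkb1 at 0.74-fold (0.71 to 0.77), and Nfkb2 was below 20 CPM in both groups. The median log2 ratio of the members was -0.27 in blood, against -0.17 over all genes, and 0.07 in lung, against -0.21 over all genes. These medians depend on scaling, on depth and on the cells kept. With TMM factors they were -0.17 against -0.07 in blood and 0.26 against -0.03 in lung. The lung median of the members was -0.07 with cells thinned to 3000 UMIs and -0.03 as a mean over cells. Without cells holding a marker of another cell type it was -0.03, and Nfkb2 in lung was at -0.04. The share of all genes below naive blood beyond counting error was not counted. The 6 h and 14-day groups were set against the same naive groups, so these comparisons share their controls.

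**Figure D5:**
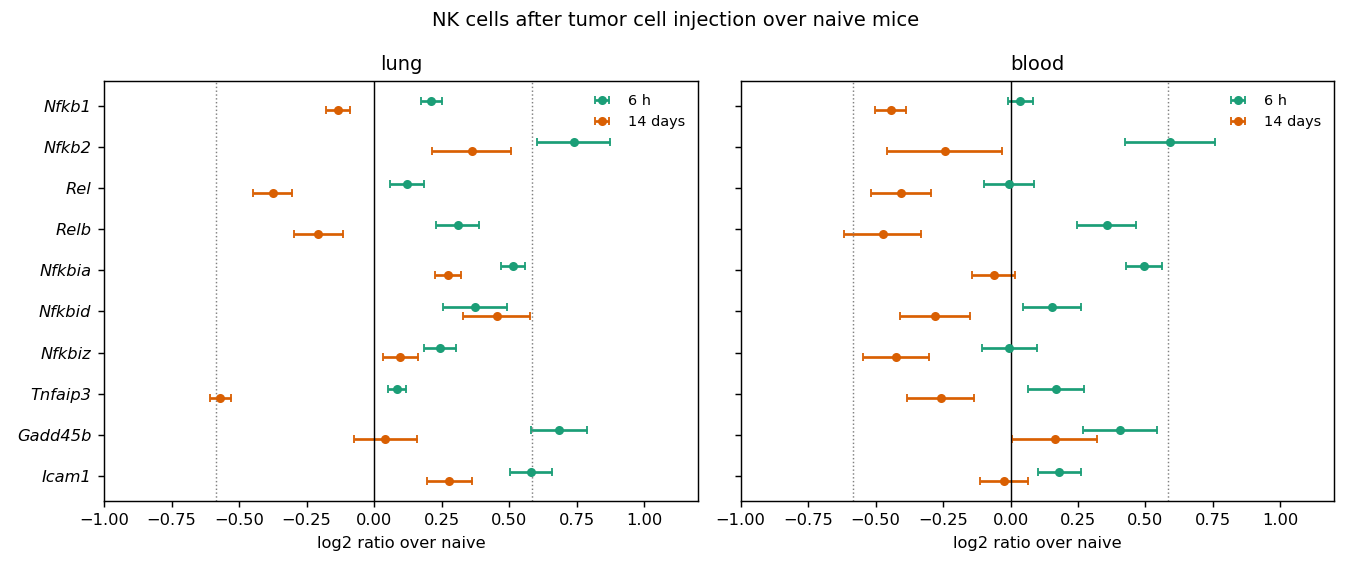
Log2 ratio of CPM over naive mice for each gene at 6 h (green) and 14 days (orange) in lung (left) and blood (right), with exact 95% intervals, the solid line at no difference and the dotted lines at 1.5-fold. All 10 points at 6 h in lung lie above 0, and no point at 14 days passes a dotted line.

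Genes of the pathway that are not members were counted from lists. Of 47 upstream and core genes, 38, 37 and 35 reached 20 CPM in the comparison of lung with blood, with medians of -0.01, -0.03 and 0.03. Past 1.5-fold, 7, 8 and 7 were higher in lung, beside 6.46%, 6.12% and 5.58% of all genes. The 2, 1 and 0 that were lower stood beside 3.06%, 2.49% and 3.42% of all genes. Listed genes with the largest differences were Irak2, a kinase-family adaptor below IL-1 family and Toll-like receptors, at 3.65-fold, 3.36-fold and 2.60-fold, Malt1, a protease of the antigen receptor branch, at 2.19-fold, 2.30-fold and 2.59-fold, and Tnfrsf1b, a receptor of TNF, at 2.22-fold, 1.98-fold and 2.04-fold. Traf5, an adaptor of TNF receptors, was lower in lung in naive mice (41.0 against 68.8 CPM) and at 6 h (40.6 against 66.5 CPM). At 6 h over naive lung 2 of 37 were higher, the adaptor Traf1 at 146 against 96.0 CPM and the inhibitor Nfkbie at 34.8 against 23.1 CPM, and none of 38 was in blood. Of all genes, 0.359% were higher in lung and 0.214% in blood. At 14 days 1 of 36 was higher and 4 lower in lung, among them Tnfrsf18 higher at 1.72-fold and Irak2, Il18rap and Ripk1 lower at 0.60, 0.60 and 0.62-fold, and Malt1 alone of 38 was lower in blood, at 0.66-fold. Of all genes, 4.37% were higher and 11.3% lower in lung, and 2.75% were lower in blood. The counts on this list at 14 days lay near those shares.

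Of 18 other brakes on the list, 15, 15 and 16 reached 20 CPM, and 1, 1 and 2 were past the fold higher in lung than in blood, beside 6.46%, 6.12% and 5.58% of all genes. Zc3h12a, which encodes the RNase Regnase-1, was so in every library, at 50.2, 56.0 and 43.4 CPM in lung and 30.6, 33.0 and 25.8 CPM in blood. Usp18, an interferon-induced brake, joined it at 14 days, at 40.8 against 14.2 CPM, and was 2.13-fold of naive lung. No brake was lower past the fold in any of the 7 comparisons, beside 0.0625% to 11.3% of all genes. The counts of brakes lay near those shares.

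Of 31 other NF-κB targets, 17, 17 and 18 reached 20 CPM in the comparison of tissues, and 2, 5 and 7 were past the fold higher and 3, 3 and 2 lower in lung, with medians of 0.11, 0.06 and 0.21. Beside these stood 6.46%, 6.12% and 5.58% of all genes higher and 3.06%, 2.49% and 3.42% lower. Icos, a costimulatory receptor gene, was at 61.5 and 54.6 CPM in lung and 15.1 and 11.0 CPM in blood of the naive and 6 h libraries. The survival gene Bcl2l1 went the other way in each library, at 40.1, 41.7 and 41.9 CPM in lung and 82.4, 88.6 and 78.3 CPM in blood. Over time, Ltb (lymphotoxin β) was 1.94-fold of naive at 6 h and 6.64-fold at 14 days in lung, Pim2 (a survival kinase) was 1.82-fold and 2.57-fold, and Cxcl10 (a chemokine that interferon also induces) was at 57.3 CPM at 14 days against 3.71 CPM in naive lung. In all, 3 of 17 targets were past the fold higher at 6 h and 6 of 18 at 14 days in lung, with 2 lower at 14 days, beside 0.359% of all genes higher at 6 h and 4.37% higher and 11.3% lower at 14 days. In blood 2 of 15 were higher at each time, beside 0.214% and 0.718% of all genes. Those were Ltb at 1.69-fold and Pim2 at 1.84-fold of naive blood at 6 h. At 14 days they were Pim2 at 2.05-fold and the chemokine gene Ccl5 at 1.52-fold. Ltb in lung was 0.54-fold of blood in naive mice, 0.62-fold at 6 h and 2.56-fold at 14 days.

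The genes whose level over the 6 groups was most like the mean of the members were Birc3, Zc3h12a, Ier5, Clic4 and Ptprj, with Pearson r of 0.99, 0.98, 0.98, 0.98 and 0.98 on log2(CPM + 1). Birc3, an inhibitor of apoptosis in the TNF receptor complex, had 161, 201 and 144 CPM in lung and 92.0, 107 and 82.2 CPM in blood. These r values describe 6 groups that come from 3 libraries and carry no test.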

How the data were processed

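NK cells were sequenced in 3 droplet libraries (10x Genomics 3′ kit). Per the file headers, the deposited matrices hold unnormalized UMI counts of genes and hashtags in all barcodes, made by the authors with Cell Ranger (7.1.0 in the matrix headers) on GRCm38.p6. The labels also name Seurat 5.0, whose output was not used here. Barcodes with 800 to 5000 genes, at most 6% mitochondrial counts and at least 90% of tag counts from 1 tag were kept. Of 8385, 7584 and 5785 barcodes passing the first 2 filters, 4.08%, 2.08% and 2.44% carried both tags or none and were left out. The tags were least clean in naive lung, where 52.2% of the cells kept had 99% or more of tag counts from 1 tag. That share was 92.8% in naive blood and 75.4% to 85.3% in the other groups. No doublet caller was run, so doublets within a tissue stay in. Counts were summed per group and divided by all gene UMIs. Ratios have exact intervals, run on counts simulated from the Poisson model that they assume. That check cannot show whether they cover spread between cells beyond this model. For Gadd45b in 6 h lung the spread was larger than the model assumes, as given under other observations. For shares and classes, cells were thinned to 3000 UMIs, and 6 to 86 cells per group with fewer were left out. Free RNA, from barcodes with at most 100 UMIs, was limited to 7.97%, 3.96% and 2.98% of counts.

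The members and lists were chosen with earlier results of these data known. Named were all members, per list the 3 highest and 3 lowest ratios past 1.5-fold in a comparison, the 5 genes most like the members, and genes defining a class or cell type. Sequences are RefSeq's. The promoter search was not planned, and exons came from GENCODE M21, not the release the methods name. Alternatives changed scaling, depth, filters, hashtag limits, free RNA, cell states and the fold. Tools were Python 3.11.15, numpy 2.4.6, scipy 1.17.1, matplotlib 3.10.9, R 4.3.3 and edgeR 4.0.16 (TMM factors only).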

Additional observations from a re-analysis of the deposited data

Results flagged for a closer look

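Some members went opposite ways in the tissues or times compared, each with an interval of counting error that leaves out equality. At 14 days over naive, Nfkb2 was at 0.36 on the log2 scale in lung and -0.24 in blood, Nfkbid at 0.45 and -0.28, and Nfkbiz at 0.10 and -0.42. Without cells holding a marker of another cell type, Nfkb2 in lung was at -0.04. In lung over blood, Nfkbid was at -0.48 in naive mice and -0.26 at 6 h but at 0.26 at 14 days, and Icam1 at -0.24 in naive mice and 0.16 at 6 h. In cells without the 9 early response and heat shock genes, Nfkbid at 14 days was at -0.26 (-0.64 to 0.10) and Icam1 at 6 h at -0.30 (-0.51 to -0.10), so neither crossed there. With 1 library per condition these differences were not tested.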

How the results depend on the processing

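Of 117 recomputed counts of members past the fold, 98 stayed within 1.5 times the reported count and 19 did not. A 2-fold limit left 3 members higher in lung than blood in naive mice, 4 at 6 h, 0 at 6 h over naive lung and 0 at 6 h over naive blood. Lung at 6 h over naive had 4 with TMM factors and 4 without cells holding a marker of another cell type. Lung at 14 days over naive, with 0 reported, had 1 with TMM factors, with totals without mitochondrial and ribosomal protein genes, with 99% or more of tag counts, with free RNA subtracted, without cells with a UMI of Fos, Jun, Egr1, Hspa1a or Hspa1b, and without cells with another type's marker, and 2 without cells with a UMI of the 9 early response and heat shock genes. Blood at 6 h over naive, with 1 reported, had 0 when thinned or without cells with a UMI of the 5 genes, 2 without Ccl4-high cells and 2 without the cells with the 9 genes. Blood at 14 days over naive had 2 without cells with another type's marker. Leaving out the cells with the 9 genes, an alternative chosen after seeing the data, gave 3 for lung over blood at 6 h and turned Gadd45b there to -0.14. Of values short of the fold, it also turned lung over blood for Icam1 at 6 h and 14 days (-0.30 and -0.24), Nfkbid at 14 days (-0.26) and Nfkb2 in naive mice (-0.10). The cause of these moves was not tested. In lung over blood at 6 h and 14 days, 71.1% and 62.0% of genes past the fold were higher in lung, and 85.2% and 80.7% with TMM factors, which left 7 and 8 members higher. At 6 h over naive blood, 58.3% were higher, and 76.2% with totals without mitochondrial and ribosomal protein genes. Tnfaip3 in lung over blood lay between 2.25 and 3.75 on the log2 scale in all 14 recomputations of cells, depth and scaling in each library. No paired analysis was possible because each time point has 1 library, as far as time is compared. Lung and blood are paired within each library, and a fit over the 3 libraries with library as a block, which would take the time points as replicates, was not run. Genes with few counts, such as Nfkb2 with 270 UMIs in 14-day blood, have the widest intervals.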

Other observations

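Transcripts of Gadd45b were held by few cells. After thinning to 3000 UMIs, a Gadd45b UMI was found in 7.69%, 10.1% and 7.35% of lung cells and 5.01%, 6.20% and 5.38% of blood cells in the naive, 6 h and 14-day libraries. The variance of Gadd45b over cells in 6 h lung, 0.96, was above its mean of 0.22. Its intervals assume a variance equal to the mean, so in that group they are too narrow for the spread between cells. For Tnfaip3, the 10% of cells with the most thinned UMIs held 32.6%, 31.9% and 41.2% of them in lung and 79.0%, 69.7% and 85.8% in blood. Few thinned blood cells held any Tnfaip3 UMI. A high share in blood thus follows largely from the low level there and is not a separate result. Free RNA could give a Gadd45b UMI to at most 1.40% of cells in any group.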
